A study of Mus musculus with 13 samples.

Results

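Peaks that lay only at promoters of noncoding RNA genes were described in 13 ATAC-seq libraries made from mouse oligodendrocyte progenitor cells (OPCs) in culture. ATAC-seq marks open chromatin by the cuts of the Tn5 transposase. Overlapping peaks of the 13 lists were joined, which gave 99746 joined peaks. A joined peak was a member if it reached the promoter of a long noncoding RNA (lncRNA) gene and of no protein-coding gene. A promoter ran from 2 kb before to 1 kb after the transcription start site (TSS) of any transcript. The lncRNA genes were those of the GENCODE M21 types lincRNA, antisense, processed transcript and bidirectional promoter lncRNA. The rule found 2334 members, beside 19488 joined peaks at coding promoters and 77924 at neither kind of promoter. A joined peak exists through a call in any of the lists, and its extent is the union of those calls. The rule then used position alone, so neither the number of calls nor fold was used to choose the members.

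The OPCs came from pups of postnatal day 5 to 7 and were grown in proliferation medium with no differentiation. There were 3 control brainstem libraries (cultures 51, 59 and 61), 3 K27M brainstem libraries (cultures 41, 59 and 61), 3 control telencephalon libraries (cultures 51, 59 and 61) and 4 K27M telencephalon libraries (cultures 41, 51, 59 and 61). K27M cultures carried the H3-3a-LSL-K27M knock-in of mutant histone H3.3, switched on by a Cre transgene that the study's methods name hGFAP-Cre and the labels AMGFAP-Cre, and that acts in neural stem and progenitor cells and so also in cells other than OPCs. Mice were on an FVB background, controls were littermates, tissue of several pups was pooled by region and genotype, and the cells were taken by panning on PDGFRα after removal of microglia and endothelium. The submitters name the telencephalic tissue cortex. Values per library are given below in the order of groups and cultures of this paragraph.

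Long noncoding RNAs are transcripts without a long reading frame. Some act on chromatin near their own gene, some build nuclear bodies, and others are only the carriers of small RNAs cut from their introns or exons. Their promoters are often poor in CpG and used in few cell types, whereas promoters of housekeeping coding genes mostly lie in CpG islands. In the nervous system many lncRNA genes lie beside genes of developmental transcription factors. An open promoter is no measure of the RNA, which was not analysed here.

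Fold is the enrichment of a peak against the local background around it, within 1 library. Lists held 16879 to 52466 peaks, and the list of control telencephalon culture 59 was the shortest. Read depth is unknown, so a peak missing from a list was not called at that depth and need not be closed. P-values below measure only the spread between these cultures. Promoters of 5 of 6 OPC marker genes (Pdgfra, Olig1, Olig2, Sox10 and Ptprz1) were called in all 13 libraries, and that of Cspg4 in 3. The microglial promoters Cx3cr1 and Csf1r and the endothelial promoter Cdh5 were called in 0 libraries. P2ry12 was called in 12, Aif1 in 6, Cldn5 in 3 and Pecam1 in 1. The neuronal promoters Snap25 and Syt1 were called in 13 and Rbfox3 in 11, and the astrocytic promoters Gfap in 13, Aqp4 in 8 and Aldh1l1 in 4. A called promoter is no measure of the number of such cells, and their part in the results below was not tested.

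Sequences of 6 members show the kinds of promoter described here, each 5′ to 3′ on the plus strand of GRCm38. The first belongs to Gm37494, the member of highest fold. Then come Gm12811, called in every brainstem and no telencephalon library, Gm2861, the member that leaned most to the telencephalon, and Gm36500, the member that leaned most to K27M. Capitals mark letters of the motifs searched, which were the GC box, the CCAAT box, and the CRE, ETS, E-box, SOX and AP-1 motifs.
Gm37494 (chr7:39552218-39552517): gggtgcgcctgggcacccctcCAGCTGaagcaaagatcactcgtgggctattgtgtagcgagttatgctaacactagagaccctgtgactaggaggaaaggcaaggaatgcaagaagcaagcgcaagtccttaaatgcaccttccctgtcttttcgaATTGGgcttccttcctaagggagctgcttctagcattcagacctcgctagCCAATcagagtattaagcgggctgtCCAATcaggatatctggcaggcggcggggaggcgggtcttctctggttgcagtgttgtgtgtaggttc
Gm12811 (chr4:109569085-109569384): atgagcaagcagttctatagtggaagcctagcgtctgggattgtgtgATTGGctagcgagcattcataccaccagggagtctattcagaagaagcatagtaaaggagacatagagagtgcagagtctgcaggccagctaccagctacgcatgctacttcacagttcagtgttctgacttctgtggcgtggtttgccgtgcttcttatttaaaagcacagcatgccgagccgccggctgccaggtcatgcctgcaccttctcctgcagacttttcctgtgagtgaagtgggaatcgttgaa
Gm2861 (chr5:97194952-97195251): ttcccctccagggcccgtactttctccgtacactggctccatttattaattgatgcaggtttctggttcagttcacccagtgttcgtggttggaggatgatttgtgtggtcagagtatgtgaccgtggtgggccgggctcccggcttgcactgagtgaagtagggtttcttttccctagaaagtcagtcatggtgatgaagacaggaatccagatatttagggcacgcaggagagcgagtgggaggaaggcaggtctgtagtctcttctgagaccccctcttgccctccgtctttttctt
Gm36500 (chr13:34133460-34133759): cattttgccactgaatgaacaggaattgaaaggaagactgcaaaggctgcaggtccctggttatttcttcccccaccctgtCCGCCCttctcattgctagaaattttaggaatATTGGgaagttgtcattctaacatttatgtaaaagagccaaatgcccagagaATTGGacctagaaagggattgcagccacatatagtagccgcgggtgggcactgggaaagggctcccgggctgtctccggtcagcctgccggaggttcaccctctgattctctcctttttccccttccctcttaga
The Gm37494 stretch held 3 CCAAT boxes (counted on both strands) and 1 E-box, and Gm12811 held 1 CCAAT box. Gm2861 held none of the 7 motifs. Gm36500 held 1 GC box and 2 CCAAT boxes. The last pair, BC002059 and Gm6712, are shown for their likeness, and here capitals mark the bases that differ.
BC002059 (chr17:16951379-16951675): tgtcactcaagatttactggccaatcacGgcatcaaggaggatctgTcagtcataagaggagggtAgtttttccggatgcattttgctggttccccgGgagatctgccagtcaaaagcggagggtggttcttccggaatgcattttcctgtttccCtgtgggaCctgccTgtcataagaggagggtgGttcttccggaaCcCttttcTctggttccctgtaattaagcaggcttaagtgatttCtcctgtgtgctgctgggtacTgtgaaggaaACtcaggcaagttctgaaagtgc
Gm6712 (chr17:17294260-17294556): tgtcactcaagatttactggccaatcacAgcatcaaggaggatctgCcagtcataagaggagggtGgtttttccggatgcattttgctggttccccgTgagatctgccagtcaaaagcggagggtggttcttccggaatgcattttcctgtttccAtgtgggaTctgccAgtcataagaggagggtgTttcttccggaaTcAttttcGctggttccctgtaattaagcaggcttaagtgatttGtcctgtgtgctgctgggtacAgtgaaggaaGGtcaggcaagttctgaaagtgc
Over these 297 aligned bases the pair shared 282, an identity of 94.9%.

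Members touched 2194 of the 9793 annotated genes of the 4 types (22.4%). The lncRNA nearest to the peak was a lincRNA at 1437 members (61.6%), an antisense gene at 636 (27.2%), a processed transcript at 256 (11%) and a bidirectional promoter lncRNA at 5. A further 1906 joined peaks reached a lncRNA promoter and a coding promoter together, 45.0% of all peaks at lncRNA promoters, and were left out by the rule. Members were 1028 bp wide in the median, from 228 to 5271 bp, against 1465 bp at coding promoters and 686 bp elsewhere. The widest member covered the promoter of the antisense gene Gm16170 (chr11:48852975-48858245), whose nearest coding TSS was that of Trim7, 5073 bp away. It was called in all 13 libraries with a fold of 2.42 to 3.33. At the border of the rule, 83 members reached a noncoding window by at most 100 bp, with a median of 3 libraries and a median mean fold of 2.63. The 90 peaks that ended within 100 bp outside such a window had a median of 2 libraries and a median mean fold of 2.65.

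Members were called less widely than coding promoters and more widely than peaks away from promoters. Of the members, 362 were called in all 13 libraries, a share of 15.5% (95% Wilson interval 14.1 to 17). The share was 43.8% (43.1 to 44.5) at coding promoters and 5.37% (5.21 to 5.53) at other peaks. Members of a single library numbered 729, or 31.2% (29.4 to 33.1), against 16.9% (16.4 to 17.4) of coding promoters and 50% (49.6 to 50.3) of other peaks. The 3 intervals did not overlap for either share. They describe counting error among peaks alone, not how cultures vary, and peaks of 1 library share its depth.

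**Figure D1:**
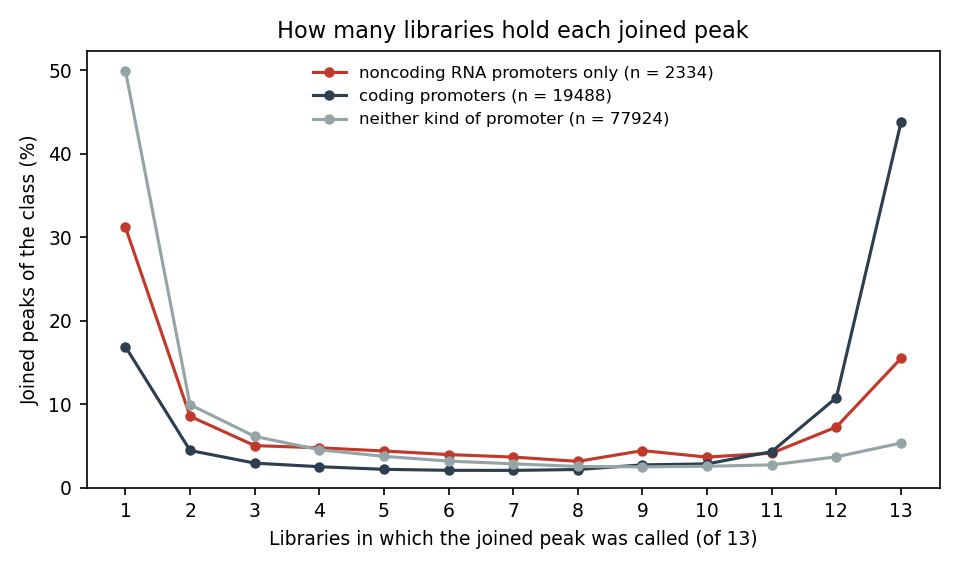
Percent of joined peaks of each class (y axis) against the number of libraries in which the peak was called (x axis, 1 to 13), for members (red), coding promoters (dark) and peaks at neither kind of promoter (grey). Members have 2 high ends, with 31.2% in 1 library and 15.5% in all 13.

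Sequence features moved with the number of libraries, and members of all libraries still differed in composition from coding promoters called as widely. In the central 300 bp the observed over expected CpG ratio had a median of 0.215 at members of 1 library and 0.432 at members of all 13. At coding promoters the same medians were 0.224 and 0.797, and at other peaks 0.175 and 0.237. Median GC content rose in the same order, from 47.7% at members of 1 library to 52.7% at those of all 13, which was 64.7% at coding promoters of all 13. The GC box (GGGCGG, either strand), which binds Sp factors, was found in 29.8% of members of all 13 libraries, in 59.3% of coding promoters and in 10.7% of other peaks called as widely. Over all members it was found in 14.5%, against 41.3% of coding promoters and 5.42% of other peaks.

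The other motifs differed less or in another order. The CCAAT box (CCAAT) was found in 32.3% of all members, 27.4% of coding promoters and 34.2% of other peaks. The E-box CAGCTG, which neural basic helix-loop-helix factors can bind, was found in 22.4%, 18.3% and 20.2%. The SOX motif ACAATG was found in 16.5%, 8.83% and 18.3%, and the AP-1 motif TGANTCA in 9.94%, 5.22% and 11.1%. The ETS motif CCGGAAGT and the CRE TGACGTCA were rare, with 0.771% and 0.643% of members against 3.08% and 1.28% of coding promoters. These are matches of letters in either strand, with no test, and longer peaks were not searched beyond their centre.

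**Figure D2:**
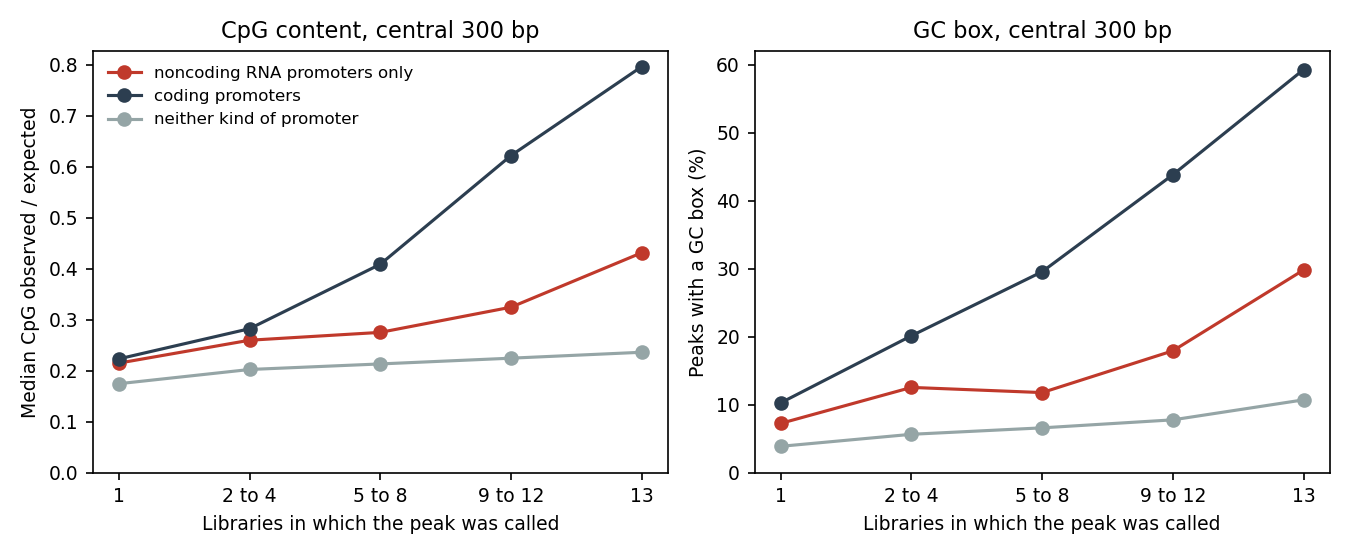
Median observed over expected CpG ratio (left) and percent of peaks with a GC box (right) in the central 300 bp, by number of libraries in which the peak was called (x axis), for the 3 classes of peak. Members of all 13 libraries reach a CpG ratio of 0.432 and a GC box in 29.8%, between the coding promoters and the other peaks.

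The TSS of the lncRNA lay inside the peak at 1139 members (48.8%). This share was 23.2% at members of 1 library, 53.7% at those of 5 to 8 libraries and 78.5% at those of all 13. Median width rose too, with 427, 1161 and 1714 bp in the same order, and a wider peak covers a TSS more readily. The part of width in this share was not tested. Antisense genes supplied 18.2% of the members of all 13 libraries and processed transcripts 17.1%, beside their shares of 27.2% and 11% in all members.

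Coding neighbours were mostly distant. The nearest coding TSS was 30950 bp away in the median, within 10 kb at 549 members (23.5%) and beyond 50 kb at 895 (38.3%). A coding gene body overlapped 624 members (26.7%), and a coding exon 198 (8.48%). The promoter of the nearest coding gene was called in all 13 libraries at 1281 members (54.9%) and in none at 303 (13%). In a library, the neighbour's promoter was called at 76.3% ± 6.30 (SD, n = 13) of the members called there and at 75.3% ± 6.25 of those not called there. The first share was the higher in 10 of 13 libraries, by 1.05 percentage points in the mean (SD 1.23, range −0.47 to 3.60). No test was run on it.

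Transcription factor families of patterning and lineage supplied the nearest coding gene of 85 members (3.64%), from 48 different factor genes. Of these members, 7 (8.24%) were called in all 13 libraries and 36 in a single one, against 355 of the other 2249 (15.8%) and 693. Sox genes had most of them, with 23 members, followed by Pax and Nr2f genes with 9 each, and Irx, Nkx and Pou3f genes with 6 each. The 7 members of all libraries lay at very different distances from the TSS of their factor gene. Gm15816 was 2391 bp from Nkx6-3, a peak of Sox2ot 10593 bp from Sox2 and Pantr2 15088 bp from Pou3f3. The others were farther, with 4632428C04Rik at 54278 bp and Gm26569 at 115956 bp from Hes1, Gm31946 at 226856 bp from Nr2f1 and Gm28175 at 433862 bp from Pou3f3. Gm15816 touched a coding exon, and the Nkx6-3 promoter was called in 0 libraries. The promoters of Sox2, Pou3f3, Hes1 and Nr2f1 were called in all 13. Hes1 is a target of Notch signalling, and Sox2 maintains neural progenitors. The mean folds of these 7 members ran from 2.43 at Sox2ot to 4.03 at Gm31946. The 9 members of Pax genes included none called in all libraries.

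The 6 lists of known lncRNAs gave 80 names, of which 72 were annotated as one of the 4 types. A member was found for 43 of them, 23 shared their peak with a coding promoter and 6 had no joined peak (H19, Rian, Mirg, Mir142hg, Hotair and Halr1). Of the 43, 22 had a member called in all 13 libraries. Their mean folds ran from 2.45 to 4.11, with a median of 3.08, where the median over all members of 13 libraries was 3.47.

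Promoters of imprinted genes and of X-chromosome dosage were represented by 9 lncRNAs. Kcnq1ot1, an imprinted antisense transcript that silences neighbouring genes, had a member (chr7:143295269-143297161) in all 13 libraries. Its fold was 4.39, 3.59 and 3.76 in control brainstem, 3.75, 4.05 and 3.11 in K27M brainstem, 3.54, 3.15 and 3.67 in control telencephalon, and 3.23, 3.75, 3.4 and 3.56 in K27M telencephalon. The groups overlapped throughout. Jpx and Ftx, which regulate Xist, were also called in all 13, with mean folds of 3.04 ± 0.29 and 3.23 ± 0.42 (SD, n = 13). Firre was called in 12 libraries, Airn in 11 and Meg3 in 10. Xist, which coats the inactive X chromosome, was called in 7 libraries, and its antisense partner Tsix in 5. Snhg14, the transcript across the Prader-Willi region, was called in 6, of which 1 was brainstem and 5 were telencephalon (two-sided Fisher's exact p = 0.103). That peak covered no Snhg14 TSS and lay 912 bp from the nearest. The calls at Xist, 4 of 6 brainstem and 3 of 7 telencephalon libraries, had a two-sided Fisher's exact p of 0.592. Overlapping genes such as Xist and Tsix cannot be told apart by an unstranded assay, but their members were separate peaks.

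Nuclear-body and widely transcribed lncRNAs had members at 16 of 23 annotated names, and the other 7 (Gas5, Snhg1, Snhg3, Snhg18, Zfas1, Tug1 and Crnde) shared their peak with a coding promoter. Of the 16, 11 were called in all 13 libraries. The highest were Snhg8, a host of small nucleolar RNAs, with a mean fold of 4.11 ± 0.51 (SD, n = 13), and Dancr, also such a host, with 4.08 ± 0.58. Malat1 of the nuclear speckles had 2 members, both called in all 13 libraries. One lay 495 bp from the nearest Malat1 TSS, with a mean fold of 3.04 ± 0.42. The other covered a Malat1 TSS, with 2.93 ± 0.24. Neat1, the scaffold of paraspeckles, stood at 2.73 ± 0.31. The same peak covered a TSS of the antisense gene Frmd8os. Snhg5 stood at 3.57 ± 0.36, Snhg17 at 3.32 ± 0.62, Dleu2 at 3.27 ± 0.33 and Snhg6 at 3.25 ± 0.30. Epb41l4aos, Pvt1 and Miat were called in 12 libraries and missing from control telencephalon culture 59 alone. Snhg12, Snhg15 and Lncpint were called in all 13 with mean folds of 3.00, 2.83 and 2.96, the annotated form of Norad (2900097C17Rik) in 10 and Snhg20 in 8.

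Host genes of microRNAs had members at 8 of 10 annotated names, 5 of them in all 13 libraries. Mir99ahg was the highest of them, with a mean fold of 3.66 ± 0.62 (SD, n = 13), and Mir124a-1hg the lowest, with 2.45 ± 0.22. C130071C03Rik and Mir9-3hg, which host copies of the neural progenitor microRNA miR-9, had mean folds of 2.62 ± 0.22 and 3.11 ± 0.36. This Mir9-3hg peak lay 1187 bp from the nearest Mir9-3hg TSS. A peak that covered another TSS of that gene was called in 10 libraries, with a mean fold of 2.07. Mir17hg, the host of a cluster of growth-related microRNAs, was called in all 13, Mir124-2hg in 12 and Mir155hg in 9. Carmn, a host gene of smooth muscle microRNAs, was called in 5 libraries, of which 4 were brainstem and 1 telencephalon (two-sided Fisher's exact p = 0.103).

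LncRNAs beside neural transcription factor genes were mostly left out by the rule, since 9 of 14 annotated names shared their peak with a coding promoter. The 5 with a member were Sox2ot and Pantr2 (all 13 libraries), Rmst (10), Six3os1 (2) and Nkx2-2os (1). The oligodendrocyte lineage lncRNA 9630013A20Rik, known from differentiating OPCs, had a member (chr14:84476007-84478374) in all 13 libraries. Its fold was 3.84, 3.42 and 4.05 in control brainstem, 3.53, 3.03 and 3.26 in K27M brainstem, 2.89, 3.13 and 3.33 in control telencephalon, and 2.66, 3.55, 2.90 and 3.06 in K27M telencephalon. The control brainstem values were the highest as a group but overlapped those of K27M brainstem and K27M telencephalon. Its log2 fold was 0.13 higher in brainstem (SE 0.07, limma adjusted p = 0.833).

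Members of the Hox clusters were few and not called in all libraries. The rule left out 5 of 11 annotated Hox names (Hotairm1, Hoxaas2, Hoxaas3, Hoxb3os and Hoxb5os), which shared their peak with a coding promoter. The Hox genes set position along the body axis in hindbrain and trunk. Peaks of Gm15050, Hoxa11os, Hoxd3os1 and Haglr lay between the outer Hox genes of a cluster, and that of Hottip beside Hoxa13. Haglr (chr2:74749332-74750610), near Hoxd3, was called in 4 of 6 brainstem and 3 of 7 telencephalon libraries, with a fold of 2.26 to 3.56. Hoxd3os1 (chr2:74715074-74716490) was called in 5 of 6 and 2 of 7 (two-sided Fisher's exact p = 0.103), with a fold of 2.44 to 2.72. Hoxa11os was called in 1 control brainstem library, and Hottip in 1 K27M telencephalon library. Over the 4 members inside the clusters, 16 of 24 pairs of member and brainstem library were calls (66.7%) and 5 of 28 pairs with telencephalon libraries (17.9%). Over all members the same shares were 45.8% and 45.2%. The clusters were counted after Gm15050 had been seen, which supplied 6 of the 16 brainstem calls and 0 of the 5 telencephalon calls. Gm15050 is on none of the lists. Hottip, called in telencephalon alone, lies outside and is not in these shares. The pairs of 1 library are not independent.

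**Figure D3:**
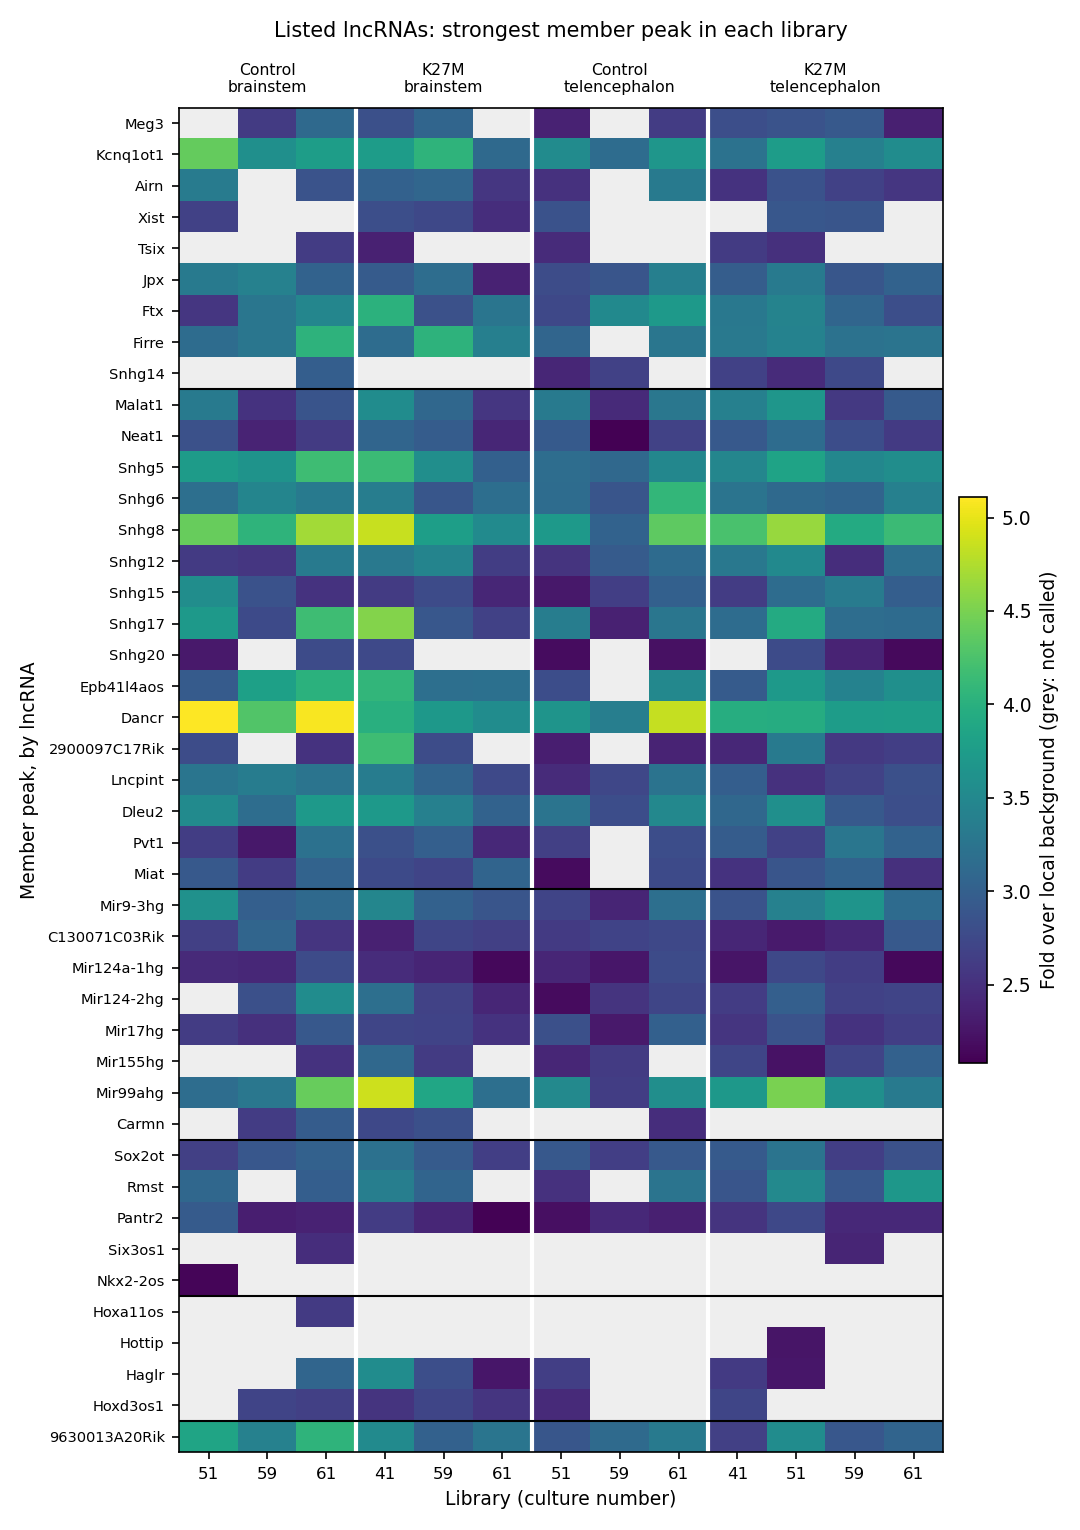
Fold over local background (colour) of the listed lncRNAs in each library (columns, by culture number within the 4 groups), with grey where no peak was called. For each lncRNA the member called in most libraries is shown, and black lines divide the 6 lists. Snhg8 and Dancr are among the brightest rows, and the 4 Hox rows are mostly grey.

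The 8 members of highest mean fold among those called in all libraries were Gm37494, BC002059, Gm6712, Gm32856, Gm5444, BB557941, 1700012D14Rik and Gm2824. Gm37494 (chr7:39551823-39552912) had a fold of 7.18, 5.55 and 7.34 in control brainstem, 7.68, 5.10 and 5.02 in K27M brainstem, 5.39, 3.8 and 7.13 in control telencephalon, and 5.22, 7.44, 5.20 and 5.59 in K27M telencephalon. The groups overlapped, and the lowest value was in control telencephalon culture 59. Its nearest coding TSS was that of the zinc finger gene Zfp619, 34057 bp away. BC002059 (chr17:16950784-16952274) followed with a mean fold of 5.35 ± 1.00 (SD, n = 13) and Gm6712 (chr17:17293736-17295077) with 5.24 ± 0.96. The others ran from 5.03 at Gm32856 to 4.93 at Gm2824. The nearest coding promoter was called in all 13 libraries beside each of the 8, and beside 206 of the 362 members of all libraries (56.9%).

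Near-identical copies were frequent among the strongest members. Of the 362 members of all libraries, 15 (4.14%) had another place in the genome that matched at least 50% of the peak with at least 90% identity. The share was 0.821% at coding promoters and 1.06% at other peaks called in all libraries. Among the 36 members of highest mean fold it was 9 of 36 (25%), and among the others 6 of 326 (1.84%). It was 3.76% of the 852 coding promoters and 3.61% of the 416 other peaks of highest fold, chosen in the same proportion. Gm6712 matched BC002059 with 95.4% identity over 1347 bp, and Gm32856 matched a place on chromosome 10 with 93.7% identity over 1212 bp. Reads of such pairs could be assigned to either copy, but no reads were examined. Whether this changed the fold values of BC002059, Gm6712 and Gm32856 is unknown. Whether copies affected the ranking by fold was not tested. The comparison of copies was chosen after the strongest members had been seen.

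The fold of members was compared with that of other peaks within each library. The median fold of members was 2.69 to 3.08 per library. It was lower than that of coding promoters in 13 of 13 libraries, by 0.13 on the log2 scale (SD 0.06, two-sided exact permutation test of signs, p = 0.000244, the smallest possible). It was higher than that of peaks at neither promoter in 12 of 13 libraries, by 0.03 (SD 0.03, exact permutation p = 0.00269). The exception was control telencephalon culture 59. The sign tests of this paragraph treated the 13 libraries as independent, although several shared a culture number. Both differences changed with the choice of peaks. With only peaks of p up to 1e-10 in the lists, the difference from coding promoters was 0.00 (exact permutation p = 0.743). The difference from other peaks turned to −0.03 at equal numbers of peaks per list and −0.02 with the stringent lists. Among peaks called in all 13 libraries, a comparison added later, members were lower than coding promoters by 0.03 and lower than other peaks by 0.06 (exact permutation p = 0.000244 for each).

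**Figure D4:**
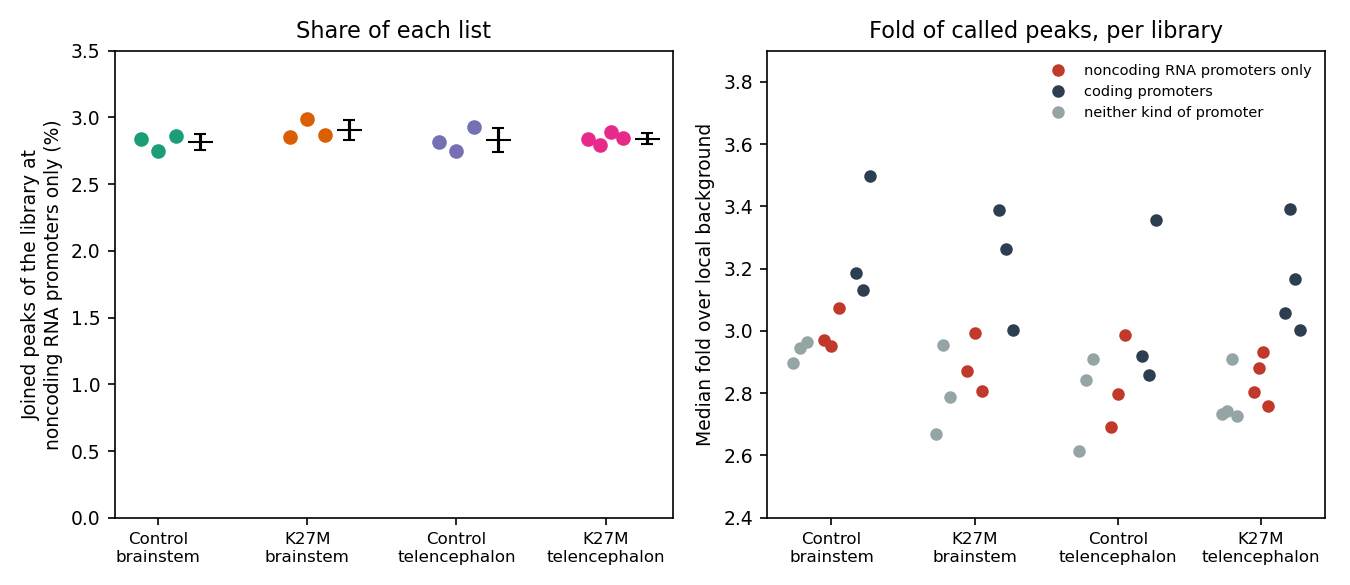
Left, percent of the joined peaks called in a library that were members (y axis), 1 point per library with mean and SD at the side. Right, median fold of called peaks per library for members, coding promoters and other peaks (y axis from 2.4). In every library the median of members lies below that of coding promoters.

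The share of members did not differ between regions or genotypes beyond the spread of cultures. Members numbered 461 to 1492 per library and rose with the length of the list, whereas their share of the called joined peaks was 2.75 to 2.99%. The share was 2.82% ± 0.06 in control brainstem (SD, n = 3), 2.90% ± 0.07 in K27M brainstem (n = 3), 2.83% ± 0.09 in control telencephalon (n = 3) and 2.84% ± 0.04 in K27M telencephalon (n = 4). Brainstem libraries were higher by 0.023 percentage points (two-sided exact permutation within genotype, p = 0.54 over 700 arrangements), and K27M libraries by 0.046 (exact permutation within region, p = 0.253). The difference between regions was −0.014 points in control cultures and 0.063 in K27M cultures. By culture number it was 0.021, 0.029, 0.051 and −0.022 in cultures 41, 51, 59 and 61. K27M libraries were higher by 0.193 points in culture 59, and lower by 0.031 in culture 51 and 0.038 in culture 61. Culture 41 had no control. Culture 51 had no K27M brainstem library, so both of its differences mix region with genotype.

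Which members were called was tested for the 356 members found in 5 to 8 libraries. With 6 against 7 libraries, Fisher's exact test allows no p below 0.000583. A single fully split peak could then not pass adjustment over the 11706 joined peaks tested. Counts of 0 that passed were therefore likely beforehand. By region, 0 of 356 passed Fisher's exact test after adjustment over the 11706 joined peaks tested, where 0% of all peaks passed. At an unadjusted p under 0.05 there were 9 members (2.53%), near the 2.36% of all joined peaks. Of these, 8 were called more often in brainstem (2.25%, where the background was 1.11%) and 1 more often in telencephalon (0.281%, background 1.25%). By genotype, 0 passed, where again 0% of all peaks did, and 3 had an unadjusted p under 0.05 (0.843%, background 1.26%). All 3 were called more often in K27M (background 1.04%), and 0 more often in controls (background 0.214%). A peak that was not called has no fold, so these are differences in calls and not in accessibility as such.

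Gm12811 and Gm15050 were called in 6 of 6 brainstem and 0 of 7 telencephalon libraries. With 6 against 7 libraries this gives the smallest p that Fisher's exact test allows, 0.000583, and an adjusted p of 0.84. Gm12811 (chr4:109568726-109569744) is a processed transcript whose TSS lay inside the peak. Its fold was 3.22, 2.83 and 3.9 in control brainstem and 3.63, 3.15 and 2.86 in K27M brainstem. The nearest coding TSS was that of 4930522H14Rik, 37429 bp away, whose promoter was called in 0 libraries. Gm15050 (chr6:52170712-52173013) is antisense to the Hoxa cluster, between Hoxa2 and Hoxa3. Its fold was low, 2.58, 2.49 and 2.53 in control brainstem and 2.38, 2.74 and 2.18 in K27M brainstem, and part of the peak lay in a coding exon.

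The next members on the brainstem side kept that order less fully. Gm13027 (chr4:140131038-140132241), antisense within a coding gene, was called in 6 of 6 brainstem libraries with a fold of 2.66 to 3.30 and in 1 of 7 telencephalon libraries with 2.29 (two-sided Fisher's exact p = 0.00466, adjusted p = 0.84). AC126937.1, 6352 bp from the TSS of Ppard, was called in 6 of 6 and 2 of 7 libraries (p = 0.021 by the same exact test). Gm13617, 7003 bp from Csrnp3, and Gm47948, 56830 bp from Nampt, were each called in 5 of 6 and 1 of 7 (exact p = 0.0291). All 3 had an adjusted p of 1.

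On the telencephalon side Gm2861 (chr5:97194394-97195810) was called in 6 of 7 telencephalon and 1 of 6 brainstem libraries (two-sided Fisher's exact p = 0.0291, adjusted p = 1). Its fold was 2.34 and 2.55 in control telencephalon cultures 51 and 61, and 2.99, 3.08, 3.38 and 2.72 in K27M telencephalon. The 1 brainstem call was in K27M culture 41, with 2.87. The missing telencephalon call was in control culture 59, the shortest list. Gm37971, Gm27243, 1500015L24Rik, Gm11548 and AC118724.2 followed, each with an exact p of 0.103. Gm27243 and Gm37971 reached folds of 4.00 and 4.12 in single telencephalon libraries.

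By genotype, Gm36500 (chr13:34133125-34134095) was called in 7 of 7 K27M and 1 of 6 control libraries (two-sided Fisher's exact p = 0.00466, adjusted p = 1). Its nearest coding TSS was that of Tubb2b, a tubulin of developing neural cells, 2659 bp away and called in all 13 libraries. Its fold was 1.76, 1.88 and 1.90 in K27M brainstem, 1.90, 2.05, 1.83 and 1.81 in K27M telencephalon and 1.70 in the control telencephalon library of culture 61. These are among the lowest folds of any named member. D030045P18Rik was called in 6 of 7 K27M and 1 of 6 control libraries, as was BC046251 (exact p = 0.0291 for each). The 1 control library was control brainstem culture 61, the longest list, for both. Gm49237 followed with 6 of 7 and 2 of 6 (exact p = 0.103). On the control side Gm36634, 5400 bp from the TSS of Nfkbia, came first with 4 of 6 control and 1 of 7 K27M libraries (exact p = 0.103). 1700025O08Rik, AI427809 and Gm45334 were each called in 5 of 6 and 3 of 7 (exact p = 0.266).

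**Figure D5:**
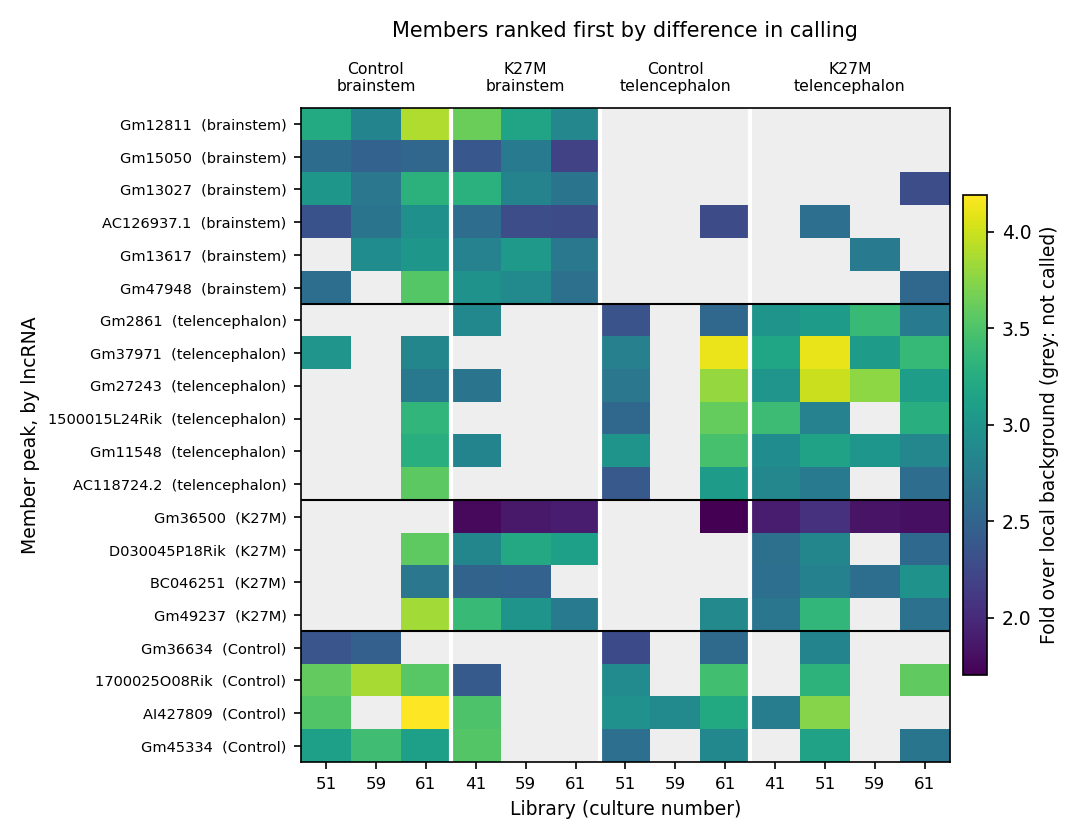
Fold over local background (colour) in each library (columns, by culture number within the 4 groups) of the members ranked first by difference in calling, with grey where no peak was called. The side on which a member was called more often stands in brackets. The first 2 rows are called in all 6 brainstem and no telencephalon libraries.

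The fold of the 362 members of all 13 libraries was compared between groups by limma on centred log2 fold, with culture number as a block and adjustment over all 13075 peaks shared by the libraries. No member passed by region (0 of 362, smallest adjusted p = 0.386), where 0.0229% of all shared peaks did. At an unadjusted p under 0.05 there were 28 members (7.73%, background 6.39%), 12 higher in brainstem and 16 higher in telencephalon. The median log2 difference of members was −0.01 (range −0.21 to 0.28), and that of all shared peaks 0.00. By genotype 0 passed by limma (smallest adjusted p = 0.77, background 0%), with 18 at an unadjusted p under 0.05 (4.97%, background 4.54%). The median log2 difference was 0.00 (range −0.28 to 0.32). The difference of the K27M effect between regions gave 0 by limma (smallest adjusted p = 0.999, background 0%), with 10 at an unadjusted p under 0.05 (2.76%, background 4.1%). A typical standard error was 0.07 for region and 0.08 for genotype on the log2 scale.

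The smallest p-values belonged to modest differences, given here as values. Gm6712 had a fold of 5.63, 5.52 and 6.44 in control brainstem, 6.11, 5.69 and 5.31 in K27M brainstem, 4.32, 2.86 and 5.79 in control telencephalon, and 4.21, 6.03, 5.17 and 5.09 in K27M telencephalon. The brainstem values lay at the upper end, but the regions overlapped, and the log2 difference was 0.28. Gm15527, in an intron of a coding gene near Chn2, and Gm35552 were next on the brainstem side, with a log2 difference of 0.22 each. On the telencephalon side stood Gm38414, 9630013D21Rik near the cell cycle inhibitor Cdkn2c and Gm47430, with −0.21, −0.19 and −0.20.

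By genotype, Gm11734 (chr11:117522677-117523805) had a fold of 3.12, 3.03 and 4.38 in control brainstem, 4.72, 4.25 and 3.52 in K27M brainstem, 2.88, 2.45 and 3.93 in control telencephalon, and 3.55, 4.81, 4.24 and 3.76 in K27M telencephalon. K27M values were higher in the mean of each region and overlapped the controls. The log2 difference was 0.32 (limma adjusted p = 0.77). AC113104.1 and Spata5l1 followed with 0.28 and 0.23. Dancr (chr5:74092499-74093819) had a fold of 5.11, 4.29 and 5.08 in control brainstem, 3.99, 3.69 and 3.55 in K27M brainstem, 3.65, 3.37 and 4.84 in control telencephalon, and 3.97, 3.96, 3.76 and 3.76 in K27M telencephalon. In brainstem every control value was above every K27M value, and in telencephalon they overlapped. Its log2 difference by genotype was −0.24 (SE 0.08, limma adjusted p = 0.77). Gm7598 and 1700110K17Rik were lower in K27M by the same fit, with −0.28 each.

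Over the listed lncRNAs the values lay close to 0. Of the 22 listed members of all libraries, 10 had a higher fold in brainstem and 12 in telencephalon, with a median log2 difference of −0.04 (range −0.11 to 0.13). By genotype 6 were higher in K27M, with a median of −0.04 (range −0.24 to 0.11). None passed limma in either comparison (smallest adjusted p = 0.833 and 0.77). Among the 11 of the nuclear-body list the medians were 0.02 by region and −0.02 by genotype, and among the 5 microRNA hosts −0.04 and −0.03.

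When members called in at least 10 libraries were fitted, with missing values left out, 714 members could be tested. By region 1 member passed, where 15 of all 23977 peaks tested did (0.0626%). By genotype 1 passed, the only one of all 23977 peaks (0.00417%), and for the difference of the K27M effect between regions 0% of peaks passed by limma. 1700011C11Rik (chr7:71960400-71961443) was lower in brainstem by 0.43 on the log2 scale (limma adjusted p = 0.026). Its fold was 3.00, 2.87 and 3.75 in control brainstem, 2.96 and 3.23 in K27M brainstem cultures 41 and 59, 3.46 and 5.13 in control telencephalon cultures 51 and 61, and 3.4, 4.13, 4.35 and 4.06 in K27M telencephalon. AC154423.1 (chr17:54852548-54854484) was lower in K27M by 0.59 (limma adjusted p = 0.0286). Its fold was 3.57, 3.59 and 4.04 in control brainstem, 2.33 and 2.77 in K27M brainstem cultures 41 and 59, 3.44 and 3.91 in control telencephalon cultures 51 and 61, and 3.06, 2.63 and 2.63 in K27M telencephalon cultures 41, 51 and 61. Every called control value was above every called K27M value. Both genes were not called in the 2 shortest lists, nor AC154423.1 in K27M telencephalon culture 59, and their fold there is unknown.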

How the data were processed

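Omni-ATAC-seq peaks of 13 OPC cultures were used. Reads had been trimmed (Trim Galore 0.6.7, cutadapt 3.4), aligned to mm10 with BWA 0.7.17-r1188, and broad peaks called for each library with MACS2 2.2.7.1 without pooling, by the authors. The deposited values are a fold ratio over local background, a −log10 p-value, a −log10 q-value and a score. The ATAC cutoff is not given in the sources used here, and the lowest −log10 q was 1. No counts were used, so depth is unknown.

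Peaks overlapping by 1 bp were joined and set against GENCODE M21. A library's fold was the highest of its joined pieces, as log2 and centred per library for limma 3.58.1 (R 4.3.3). The model held region, genotype and culture number, because the study matched cultures. Same-numbered libraries deviated together weakly at most (16 pairs, median r 0.090, range −0.098 to 0.271). The 47 pairs of different numbers had a median r of −0.033 (range −0.251 to 0.295), so the ranges overlapped. Fisher's exact test was run on peaks called in 5 to 8 libraries. P-values were adjusted by Benjamini-Hochberg over all peaks tested. Tests were checked on simulated data with planted shifts larger than the differences found here and no effect of culture. The check does not show that differences of the size found here could be detected.

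Named lncRNAs were those of 6 lists with a member, the 8 strongest members, the members with the smallest p by region and genotype, and the widest. The members and lists were chosen with earlier results of these data known.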

Additional observations from a re-analysis of the deposited data

Results flagged for a closer look

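Of 45 values examined in the group of 4 K27M telencephalon libraries, 2 had 1 library far from the others, where chance gives about 1 in 20. Both times it was culture 51. The median fold of members called in all libraries was 3.86 there, against 3.28 to 3.33 in the other cultures. This was not particular to members. Coding promoters called in all libraries had a median of 3.97 there, against 3.34 to 3.39. For other peaks called in all libraries it was 4.09, against 3.39 to 3.53. The list of culture 51 was also the longest of the group, with 52164 peaks. The promoter of Snhg17, a host of small nucleolar RNAs, had a fold of 3.94 there, against 3.14 to 3.17. Their cause was not tested.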

How the results depend on the processing

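The share of members by region was −0.0026 percentage points without K27M brainstem culture 59 (one library left out at a time, −0.0026 to 0.045). By genotype it was −0.043 with the stringent lists (leave-one-out 0.026 to 0.067). With members called in at least 10 libraries, limma called 1 member by region (15 of all 23977 peaks) and 1 by genotype (1 of all 23977). Against coding promoters the log2 fold difference was 0.0022 with the stringent lists (leave-one-out −0.143 to −0.125). Against other peaks it was −0.031 at equal numbers of peaks, −0.023 with the stringent lists and −0.059 among peaks called in all libraries, an alternative chosen after seeing the data (leave-one-out 0.026 to 0.037). The cause of these changes was not tested. The other 168 values of these comparisons under alternatives kept their direction and side of the threshold, or count. They include counts of 0 by detection, which the smallest p that the exact test allows made likely beforehand. None of 621 values of single members reversed. These members had been picked for their differences or high fold, and most alternatives left out 1 library, so this was likely beforehand. Members with no peak in an alternative were not counted there. With arrangements kept within culture number as a block, the share by region was 0.023 (exact permutation p = 0.551) and by genotype 0.046 (p = 0.278), and 0 members were called by detection. The unadjusted exact p within culture was 0.00463 for Gm12811 and Gm15050, which were split fully by region, so this test could hardly have called a single member. It was 0.0833 for Gm13617 and D030045P18Rik and 0.12 for BC046251. Without the block in limma, 0 were called by fold. The rule found 851 members at equal numbers of peaks, 530 with the stringent lists, 1661 with windows of 500 bp and 2343 with gene starts alone. Unknown read depth limits any reading of a missing peak.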
